A study of Mus musculus with 6 samples.

Results

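The genes described are 10 enzymes that activate, inactivate or reroute progesterone, estrogens and glucocorticoids, taken by symbol from a list drawn up with earlier results of these data known: Srd5a1, Srd5a2, Srd5a3, Akr1c14, Akr1c18, Hsd11b1, Hsd11b2, Hsd17b2, Hsd17b11 and Sts. Of these 10, 9 had a row among the 24964 gene symbols of the deposited table, and Sts was not analysed here. RNA was sequenced from mouse uterus around the implantation sites on gestation day 13, in 3 control libraries and 3 libraries labelled as a knockout of the progesterone receptor (PGR, gene Pgr) in the myometrium, the uterine smooth muscle. The labels give no strain, maternal age, Cre driver or deleted exon, and do not say whether animals were pooled or whether each library came from its own animal, so p-values reflect library-to-library spread, which could be technical. The values are FPKM (fragments counted on a gene, divided by its length and by library size), which allow levels of different genes to be set side by side.

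Progesterone keeps the pregnant uterus quiescent, and its local level depends on enzymes as well as on supply from the ovary. Alpha-reductases (Srd5a1, Srd5a2) saturate the steroid ring, after which the aldo-keto reductase encoded by Akr1c14 can produce neuroactive pregnane steroids, while the enzyme encoded by Akr1c18 turns progesterone into a hydroxylated form that binds the receptor poorly. Hsd17b2 encodes an oxidase that turns estradiol into the weaker estrone and can also return that hydroxylated form to progesterone. Hsd11b1 and Hsd11b2 encode enzymes that act in opposite directions on glucocorticoids, the first regenerating active corticosterone and the second inactivating it. Srd5a3 carries the family name but is known chiefly for making the dolichol used in protein glycosylation, and Hsd17b11 encodes a dehydrogenase found on lipid droplets.

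The 250 bases upstream of the RefSeq start (GRCm38.p6) are shown for the 4 members that had the largest differences between the groups among those with a promoter in the RefSeq table, which held 7 of the 10. Capitals mark the GC box GGGCGG on either strand. The regions are chr13:69611464-69611713 (minus strand) for Srd5a1, chr13:4059341-4059590 (plus strand) for Akr1c14, chr5:104021797-104022046 (minus strand) for Hsd17b11 and chr1:193242361-193242610 (minus strand) for Hsd11b1.
Srd5a1: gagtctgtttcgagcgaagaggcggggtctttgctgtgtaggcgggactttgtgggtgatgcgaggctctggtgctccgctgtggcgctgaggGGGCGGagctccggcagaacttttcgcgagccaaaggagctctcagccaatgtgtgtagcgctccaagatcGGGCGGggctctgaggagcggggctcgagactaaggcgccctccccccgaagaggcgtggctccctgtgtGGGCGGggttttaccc
Akr1c14: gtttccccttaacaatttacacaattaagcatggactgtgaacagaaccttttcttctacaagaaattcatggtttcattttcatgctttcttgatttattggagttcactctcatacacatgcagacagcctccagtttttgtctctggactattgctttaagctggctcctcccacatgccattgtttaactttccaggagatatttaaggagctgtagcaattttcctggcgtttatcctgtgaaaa
Hsd17b11: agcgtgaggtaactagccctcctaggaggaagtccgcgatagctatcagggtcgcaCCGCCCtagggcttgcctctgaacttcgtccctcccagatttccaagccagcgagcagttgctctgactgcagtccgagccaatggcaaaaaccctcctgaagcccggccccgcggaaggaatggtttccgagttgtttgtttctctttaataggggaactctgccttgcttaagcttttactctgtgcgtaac
Hsd11b1: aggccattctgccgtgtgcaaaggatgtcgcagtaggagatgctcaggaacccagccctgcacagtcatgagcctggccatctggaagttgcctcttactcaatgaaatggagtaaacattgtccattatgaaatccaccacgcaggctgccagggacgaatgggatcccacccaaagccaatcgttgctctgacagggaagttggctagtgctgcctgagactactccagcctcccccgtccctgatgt
Srd5a1 held 3 GC boxes, which began 157, 86 and 16 bases before the start, and Hsd17b11 held 1, which began 194 bases before it. Akr1c14 and Hsd11b1 held none. GC content was 64.8% for Srd5a1, 54.8% for Hsd17b11, 54.4% for Hsd11b1 and 38.8% for Akr1c14. The GC box was present in 5 of the 7 members searched and in 32.7% of 32851 promoter windows of that length. The hexamer AGAACA bound by steroid receptors (16.1% of windows), the AP-1 site TGANTCA (6.75%) and the TATA box TATAAA (12.4%) were searched on both strands and matched in 0 of the 7, which says only that these letters are not in these windows. For Akr1c14 and Hsd11b1 the RefSeq start lies inside a longer GENCODE gene span (chromosome 13, 4049011 to 4090688, and chromosome 1, 193221634 to 193264075), so other starts are annotated.

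Pgr did not separate the groups. Its level was 9.72, 8.33 and 12.1 FPKM in control 1 to 3 and 11.3, 12.4 and 7.73 FPKM in deficient 1 to 3 (the libraries labelled as knockouts), which overlap. The level over the whole gene therefore does not bear out the knockout label, and the directions below depend on that label. This level cannot refute the label either. The knockout is named for the myometrium alone, in tissue of many cell types, and no deleted exon is given. The limma test called 417 of 12500 genes (3.34%) with all 6 libraries and 1275 of 12511 (10.2%) without control 3 and deficient 3. It called 292 without control 3 alone and 525 without deficient 3 alone. No other pair of libraries was left out, so these counts do not show which libraries stand apart. Of the 417, 168 (1.34% of the genes tested) were higher and 249 (1.99%) lower in deficient 1 to 3, against 218 and 211 after rescaling to equal sums, 123 and 391 after median-of-ratios scaling and 131 and 338 after quantile normalization. Summed FPKM lay between 357126 and 377091 per library. A single read had nearly equal worth across libraries (modal ratio to control 1 between 1 and 1.01 over at least 1877 genes of low value), but the depth of single libraries is unknown. All 7 smooth muscle markers fell, their summed level going from between 8008 and 9790 FPKM to between 3228 and 3805 FPKM. In tissue of many cell types, fewer cells of a type and less RNA per cell cannot be told apart.

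Transcripts of the progesterone-inactivating enzyme and of the glucocorticoid pair were the most abundant of the set. Akr1c18 had the highest median over the 6 libraries, 536 FPKM (460 to 738), and ranked between 52 and 110 among all genes of a library. Hsd11b1 followed with a median of 470 FPKM (288 to 530), and its order with Akr1c18 was reversed in 2 of the 6 libraries. Hsd11b2 (269 FPKM, 176 to 318) was below Hsd11b1 in all 6 libraries, although their ranges overlapped. Hsd17b11 (103 FPKM, 92.0 to 161), Akr1c14 (64.2 FPKM, 43.9 to 93.0) and Srd5a1 (28.4 FPKM, 21.1 to 47.9) kept this order in every library with overlapping ranges between neighbours. Srd5a3 (11.7 FPKM, 10.2 to 12.3) and Hsd17b2 (3.40 FPKM, 1.27 to 7.15) lay below them without overlap. Srd5a2, the second alpha-reductase for steroids, was listed at 0 in 4 libraries and at 0.032 FPKM in control 2 and deficient 3. Srd5a1 was thus the more abundant of the alpha-reductase genes for steroids in all 6 libraries.

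**Figure D1:**
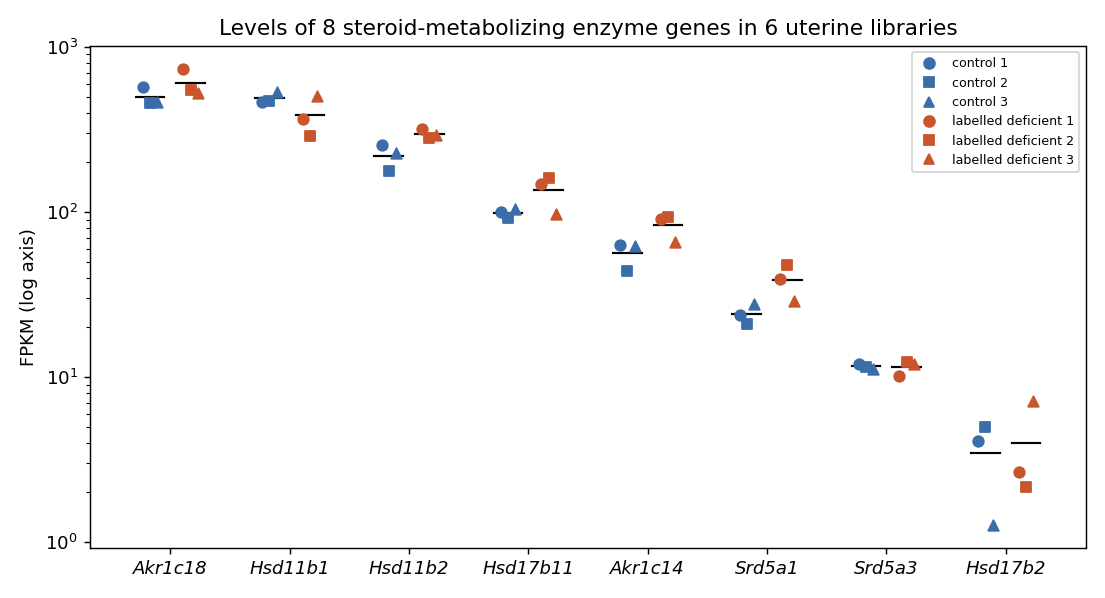
FPKM (log axis) of 8 enzyme genes in each library, ordered by median, with control libraries in blue, libraries labelled deficient in orange and black bars for group means (n = 3 each). Akr1c18 and Hsd11b1 share the top of the scale, the libraries labelled deficient lie above the controls for Hsd11b2, Akr1c14 and Srd5a1, and control 3 and deficient 3 lie far apart for Hsd17b2, at 1.27 and 7.15 FPKM.

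Set against the controls, Srd5a1, Akr1c14 and Hsd11b2 had higher values in all 3 libraries labelled deficient, at 1.60, 1.48 and 1.35 times the control mean, but these differences did not pass the test across all genes. Hsd17b11 was at 1.36 times and Akr1c18 at 1.21 times the control mean, and Hsd11b1 at 0.787 times, each with overlapping groups. Srd5a3 was at 0.986 times. Of the 8 members with a mean of at least 1 FPKM, limma called 0 at an adjusted p of 0.05, where 3.34% of all genes tested were called. At an unadjusted p under 0.05 it listed 3 of 8 (37.5%), against 21.5% of all genes tested. The groups did not overlap for 3 of 8 (37.5%), with the libraries labelled deficient above in all 3. Over all genes tested that share was 29.0%, 20.8% with the libraries labelled deficient above and 8.16% with the controls above. These shares of so few genes are not a result about the enzymes as a group. The median difference of the 8 in log2(FPKM + 1), labelled deficient minus control, was 0.34, beside 0.06 over all 12500 genes.

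**Figure D2:**
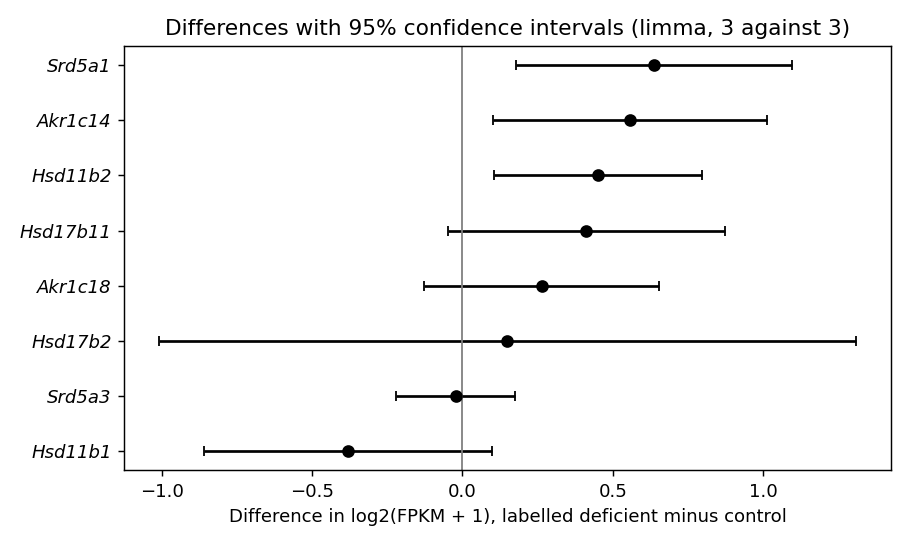
Difference in log2(FPKM + 1), labelled deficient minus control, with 95% confidence intervals from limma for the 8 members tested (3 against 3 libraries). The intervals of Srd5a1, Akr1c14 and Hsd11b2 lie above 0 before adjustment for the number of genes tested, and that of Hsd17b2 is the widest, from -1.01 to 1.31.

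Srd5a1 (chromosome 13, 69573449 to 69611442, minus strand, GRCm38) encodes the type of alpha-reductase whose loss in mice disturbs parturition. It measured 23.6, 21.1 and 27.7 FPKM in control 1 to 3 and 39.2, 47.9 and 29.0 FPKM in deficient 1 to 3. The groups did not overlap, but deficient 3 lay close above control 3. Group means were 24.1 ± 3.4 and 38.7 ± 9.4 FPKM (SD, n = 3 each), and log2 values differed by 0.64 (SE 0.19, 95% confidence interval 0.18 to 1.10, limma adjusted p = 0.14). In GENCODE M21 it shares 476 exonic bases with Gm17108 on the same strand, and reads there cannot be assigned to one of them. Without deficient 3 the difference was 0.83 (limma adjusted p = 0.041). Leaving out any other single library gave between 0.47 and 0.74 (limma adjusted p between 0.14 and 0.35). On the fewer libraries left without control 3 and deficient 3 it was 0.93 (limma adjusted p = 0.022). Deficient 3 held the lowest Srd5a1 value of its group and control 3 the highest of the controls. Leaving them out raises the difference beforehand, so the p of those fits are no test of a higher level. Among the 12500 genes tested, those whose log2 values, centred on their mean over the 6 libraries, lay nearest to Srd5a1 were Bcl7a (root mean square difference 0.054), Egfl6 (0.060) and Atp10b (0.10). Bcl7a measured 4.06, 3.19 and 4.71 FPKM in control 1 to 3 and 7.31, 9.42 and 4.91 FPKM in deficient 1 to 3. Srd5a3 (chromosome 5, 76140271 to 76155504) was at 12.1, 11.6 and 11.3 FPKM and at 10.2, 12.3 and 11.9 FPKM, so the groups overlapped. It differed by -0.02 on the log2 scale (95% confidence interval -0.22 to 0.18), with a sign that depended on the scaling.

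Akr1c14 and Akr1c18 lie in a cluster of related genes on chromosome 13, at 4049011 to 4090688 (plus strand) and 4132615 to 4150654 (minus strand). Akr1c14 measured 62.7, 43.9 and 62.1 FPKM in control 1 to 3 and 90.6, 93.0 and 65.8 FPKM in deficient 1 to 3. Its groups did not overlap, with deficient 3 close above control 1. The log2 difference was 0.56 (SE 0.19, 95% confidence interval 0.10 to 1.01, limma adjusted p = 0.17). Akr1c18, which in mice is best known for breaking down progesterone in the ovary before labour, measured 576, 460 and 462 FPKM in control 1 to 3 and 738, 546 and 526 FPKM in deficient 1 to 3. Control 1 lay above deficient 2 and deficient 3. The log2 difference was 0.26 (95% confidence interval -0.13 to 0.65, limma adjusted p = 0.40). Apart from Foxl2, the markers of ovary were at or near 0 in these libraries: Fshr was listed at 0 in all 6 and Lhcgr at no more than 0.011 FPKM. Of the 5 ovary markers only Foxl2 reached 1 FPKM, at 3.90 ± 0.82 and 5.13 ± 0.35 FPKM (SD, n = 3 each, limma adjusted p = 0.21). The summed level, most of it Foxl2, ran from 3.17 to 4.78 FPKM in the controls and from 4.85 to 5.58 FPKM in the libraries labelled deficient. The coding sequences of Akr1c14 and Akr1c18 were identical at 76.7% of 967 aligned bases, with a longest identical run of 48 bases, and Akr1c14 shares 234 exonic bases with the pseudogene Gm18857. The sources used here do not say how reads shared by such paralogs were counted, and the values of the pair are uncertain to that extent. Other members of the cluster were low, with Akr1c13 at 2.56 ± 0.48 and 2.23 ± 0.47 FPKM and Akr1c19 at 1.90 ± 0.74 and 1.52 ± 0.32 FPKM (SD, n = 3 each).

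The ratios of Srd5a1 to Akr1c14 and of Akr1c18 to Srd5a1 overlapped between the groups. The ratio of Srd5a1 to Akr1c14 within a library was 0.377, 0.480 and 0.446 in the controls and 0.432, 0.515 and 0.441 in the libraries labelled deficient, a mean log2 difference of 0.09 (exact two-sided permutation p = 0.6, adjusted over 3 pairs 0.6). Akr1c18 exceeded Srd5a1 by between 16.6 and 24.4 times in the controls and by between 11.4 and 18.8 times in the libraries labelled deficient, a mean log2 difference of -0.40 (exact p = 0.3, adjusted 0.45). Both ranges share values between the groups.

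The ratio of the glucocorticoid pair showed a larger offset than the other ratios, but it did not pass its test. Hsd11b2 (chromosome 8, 105518755 to 105523988, plus strand) measured 255, 176 and 228 FPKM in control 1 to 3 and 318, 282 and 293 FPKM in deficient 1 to 3. All 3 libraries labelled deficient lay above the controls, deficient 3 among them. The log2 difference was 0.45 (SE 0.14, 95% confidence interval 0.10 to 0.80, limma adjusted p = 0.15). Hsd11b1 measured 466, 473 and 530 FPKM in control 1 to 3 and 367, 288 and 502 FPKM in deficient 1 to 3, with deficient 3 above control 1 and control 2. Its log2 difference was -0.38 (95% confidence interval -0.86 to 0.10, limma adjusted p = 0.33). The ratio of Hsd11b2 to Hsd11b1, which does not move with the scaling of a library, was 0.548, 0.372 and 0.430 in the controls and 0.867, 0.979 and 0.584 in the libraries labelled deficient. The groups did not overlap, and the mean log2 difference was 0.83, between group means of -1.17 ± 0.28 and -0.34 ± 0.39 (SD, n = 3 each). How often ratios of other gene pairs separate the groups was not computed. Of single genes tested, 29.0% did so. The exact two-sided permutation p was 0.1, the smallest that 3 against 3 allow, and 0.3 after adjustment over 3 pairs, so the design cannot reach 0.05. The ratio of Hsd17b2 to Sts was not computed. H6pd, which supplies the cofactor that Hsd11b1 needs to act as a reductase, was at 146 ± 8 and 182 ± 20 FPKM (SD, n = 3 each), which is 0.31 on the log2 scale (limma adjusted p = 0.16).

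**Figure D3:**
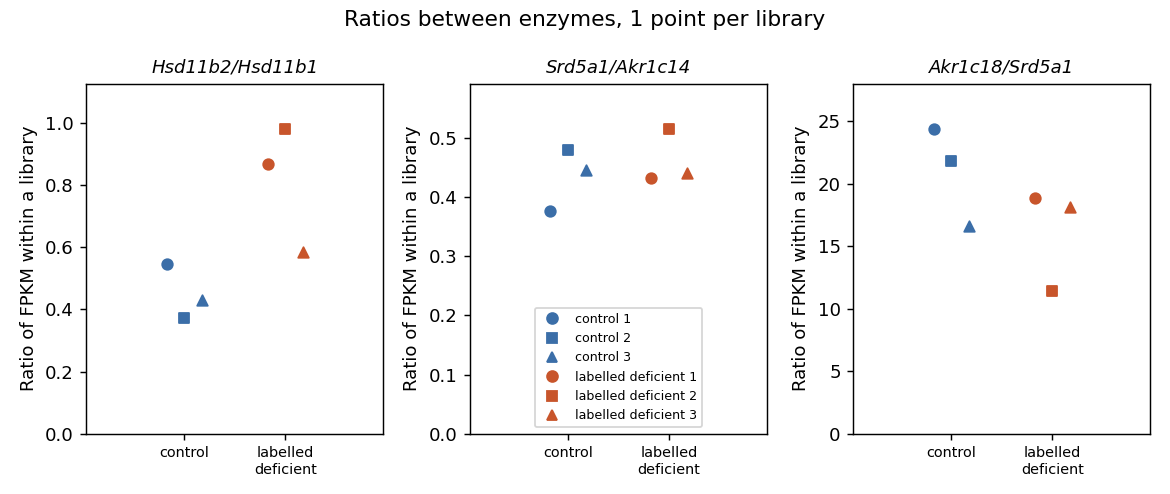
Ratio of FPKM of 2 enzymes within each library, 1 point per library, on axes that start at 0. The Hsd11b2/Hsd11b1 ratio is at or below 0.548 in the controls and at or above 0.584 in the libraries labelled deficient, while the other ratios overlap.

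The genes named for oxidation at the steroid D ring differed in pattern. Hsd17b11 (chromosome 5, 103989762 to 104021919, minus strand) measured 101, 92.0 and 105 FPKM in control 1 to 3 and 148, 161 and 96.7 FPKM in deficient 1 to 3. Deficient 1 and 2 lay above every control and deficient 3 inside the control range, so the SD was 33.9 FPKM in the libraries labelled deficient and 6.61 FPKM in the controls. The log2 difference was 0.41 (95% confidence interval -0.05 to 0.87, limma adjusted p = 0.28). It was 0.64 without deficient 3 (limma adjusted p = 0.023). Leaving out any other single library gave between 0.27 and 0.45 (limma adjusted p between 0.30 and 0.53). On the fewer libraries left without control 3 and deficient 3 it was 0.68 (limma adjusted p = 0.019). Deficient 3 held the lowest Hsd17b11 value of its group and control 3 the highest of the controls. Leaving them out raises the difference beforehand, so the p of those fits are no test of a higher level. Hsd17b2 (chromosome 8, 117701904 to 117759027, plus strand) measured 4.12, 4.97 and 1.27 FPKM in control 1 to 3 and 2.67, 2.17 and 7.15 FPKM in deficient 1 to 3. Its lowest value was control 3 and its highest deficient 3, and the other libraries ran the opposite way between the groups. The log2 difference was 0.15 (95% confidence interval -1.01 to 1.31, limma adjusted p = 0.88), and without control 3 and deficient 3 it was -0.70 (limma adjusted p = 0.038). Leaving out the libraries with the extreme values of this gene sets the reversed sign and lowers the spread beforehand. That p is therefore no test of a lower level. The genes nearest to Hsd17b2 by the same measure were the proliferation marker Mki67 (root mean square difference 0.23), Dnph1 (0.24) and Vwa2 (0.25). Mki67 measured 10.7, 10.4 and 4.30 FPKM in control 1 to 3 and 5.72, 5.20 and 10.9 FPKM in deficient 1 to 3.

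Deficient 3 lay apart from deficient 1 and 2 for several of the enzymes. Relative to the control mean in log2(FPKM + 1), deficient 1 and 2 were at 0.69 and 0.97 for Srd5a1, at 0.70 and 0.73 for Akr1c14 and at 0.58 and 0.69 for Hsd17b11. Deficient 3 was at 0.26, 0.24 and -0.03 for the same genes. For Hsd11b1 the values were -0.41, -0.76 and 0.04 in deficient 1, 2 and 3. Hsd11b2 departed from this, at 0.55, 0.38 and 0.43. So did Akr1c18, at 0.57, 0.14 and 0.08, and Srd5a3, at -0.18, 0.07 and 0.03. For Akr1c18 and Srd5a3 it was deficient 1 that lay apart. Without control 3 and deficient 3, 3 of the 8 members passed (Srd5a1 and Hsd17b11 higher, Hsd17b2 lower), where 10.2% of all genes did. The call of Hsd17b2 follows from leaving out the libraries that hold its extreme values. Without deficient 3 alone 2 passed, Srd5a1 and Hsd17b11 (4.21% of all genes), and 0 passed when any other single library was left out. For both genes deficient 3 held the lowest value of its group, and control 3 the highest control value. Leaving these libraries out raises the differences beforehand, so these calls are no test of a higher level. With array weights, which down-weight variable libraries, 3 passed, Srd5a1, Akr1c14 and Hsd17b11 (14.2% of all genes). With control 3 and deficient 3 left out, the groups did not overlap for 6 of 8 members (75%), where that held for 62.2% of all genes. Of 6 epithelial markers 5 were tested, 2 rose, Krt19 and Cdh1, and 3 did not pass, Epcam, Krt8 and Krt18 (limma adjusted p = 0.12, 0.18 and 0.44). Krt8 and Krt18 overlapped between the groups. The summed level of the list was 586, 541 and 604 FPKM in the controls and 914, 850 and 696 FPKM in deficient 1 to 3, with deficient 3 nearest to the controls. Krt8, Krt18 and Krt19 had that order, but the other markers that were tested did not. Epcam (177 FPKM) and Cdh1 (60.6 FPKM) were higher in deficient 3 than in any other library. Foxa2, a marker of the glands, was at no more than 0.378 FPKM in any library. The part of the epithelial and muscle markers in the values of the enzymes was not tested. Trophoblast markers summed to no more than 1.71 FPKM in any library, with 4 of 9 listed at 0 throughout. Of 6 decidual markers 4 were tested and 0 passed, with 2 at an unadjusted p under 0.05. They summed to between 78.1 and 377 FPKM in the controls and between 19.6 and 47.7 FPKM in deficient 1 to 3, and without Prl8a2 the other 5 summed to between 17.7 and 22.6 FPKM and between 17.9 and 21.3 FPKM. Those 5 did not move together. Mean Hand2 was 14.7 FPKM in the controls and 10.3 FPKM in deficient 1 to 3, without overlap. Bmp2 (1.331 and 1.765 FPKM) and Wnt4 (0.645 and 0.959 FPKM) were higher in deficient 1 to 3, also without overlap. Alpl was higher on average with overlap, and Prl3c1 was at no more than 0.058 FPKM.

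**Figure D4:**
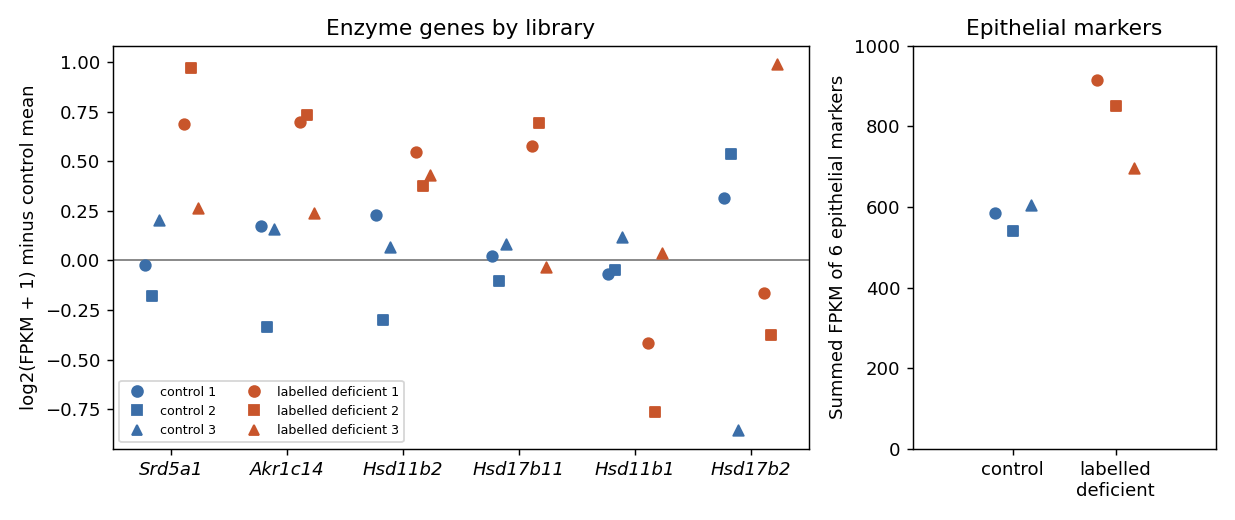
Left, log2(FPKM + 1) of 6 enzyme genes in each library minus the mean of the 3 controls; right, the summed FPKM of 6 epithelial marker genes in the same libraries. Deficient 3 (orange triangle) lies near the controls for Srd5a1, Akr1c14, Hsd17b11 and Hsd11b1 but not for Hsd11b2. Akr1c18 and Srd5a3 are not plotted. The epithelial sum is 696 FPKM in deficient 3 against 914 and 850 in the other libraries labelled deficient. Within that sum, Epcam and Cdh1 were highest in deficient 3.

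The wider network of steroid metabolism held 54 further genes in 6 lists, of which 24 were tested and 0 passed limma in either direction, where 3.34% of all genes did. At an unadjusted p under 0.05 there were 3 (12.5%), below the 21.5% of all genes tested, and the median log2 difference was -0.06. Slc10a6, a transporter that takes up sulfated steroids, measured 7.41, 6.32 and 6.47 FPKM in control 1 to 3 and 5.10, 4.88 and 4.65 FPKM in deficient 1 to 3. Every control lay above every library labelled deficient, and the difference on the log2 scale was -0.39 (SE 0.08, limma adjusted p = 0.0504). Sult1d1, a sulfotransferase, was at 118 ± 22 and 82.4 ± 13.4 FPKM (SD, n = 3 each, limma adjusted p = 0.18). Sult1e1, which sulfates estrogens and so opposes the action of Sts, was listed at 0 in 5 libraries and at 0.022 FPKM in control 3. Of 5 synthesis genes tested, those with the smallest p were Fdxr, which passes electrons to the mitochondrial steroid hydroxylases (log2 difference 0.18, limma adjusted p = 0.25), and Stard3, a cholesterol transporter (0.58, limma adjusted p = 0.29). Of 4 other dehydrogenases of the Hsd17b family tested, Hsd17b7 differed by -0.33 and Hsd17b12 by -0.13. In the list of cofactor supply and sulfatase maturation, 6 genes were tested and the smallest p were those of H6pd and of Sumf1, the enzyme that activates sulfatases (0.06, limma adjusted p = 0.64). Of 6 receptor genes tested for the ligands of these enzymes, 0 passed and 1, the estrogen receptor gene Esr1, had an unadjusted p under 0.05.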

How the data were processed

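RNA sequencing of 6 uterine samples was used. FPKM values were deposited by the authors with a column for each sample, and the labels name all 6. The tools named in the submitters' processing notes are STAR 2.7.0f, cutadapt 2.7 and DESeq2 1.24.0, and the build is mm10; their roles are not given. The sources used here name no counting program, annotation, strand setting or rule for shared reads. The 12500 genes averaging 1 FPKM or more were tested with limma 3.58.1 in R 4.3.3 (lmFit, eBayes with trend) on log2(FPKM + 1), all 6 libraries, no covariate, with Benjamini-Hochberg adjustment over all genes tested and a threshold of 0.05. Log2 differences are labelled deficient minus control on that scale, which understates changes of low genes. Ratios used FPKM without a pseudocount and exact permutation tests. Positions and coding sequences came from GENCODE M21 (GRCm38), promoters from RefSeq (GRCm38.p6). Coding sequences were aligned globally with Biopython 1.88. The code was tested on simulated data.

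The members and lists were chosen with earlier results of these data known. All members were named, with Pgr, the genes that passed or the 2 smallest p in each list of steroid metabolism, and the 3 genes nearest to the 2 members of largest range; Sult1e1, Cyp11a1, Cyp19a1, Hsd3b2, Hsd17b3 and the marker genes were named after their values were seen. A gene that the rule names is counted and not reported here. The alternatives tried were 2 pseudocounts (0.1 and 0.5), 2 filters (none, and a mean of 5 FPKM), 3 scalings, limma without trend or with array weights, the replicate block, and leaving out libraries.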

Additional observations from a re-analysis of the deposited data

How the results depend on the processing

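No member passed under the other pseudocounts, filters and scalings, without the trend or with the block. With array weights 3 members passed, Srd5a1, Akr1c14 and Hsd17b11, and 3 without control 3 and deficient 3 together; leaving out 1 library gave between 0 and 2. Over all genes the number called was 1770 with array weights, 143 with the replicate block, 1275 without control 3 and deficient 3 and between 99 and 525 with 1 library left out. Of the other steroid enzymes, 1 passed with a pseudocount of 0.1, with a minimum of 5 FPKM, with quantile normalization and with median-of-ratios scaling (Slc10a6 in each), 1 without control 3 and deficient 3 (Stard3) and 2 with array weights, against 0 with 1 library left out. These counts cover only the genes tested in the main fit. With no filter, Cyp11a1, which lies outside them, also passed (limma adjusted p = 0.022). The sign of Srd5a3 changed to 0.021 after rescaling to equal sums and ran from -0.071 to 0.054 with 1 library left out. That of Hsd17b2 changed to -0.70 when control 3 and deficient 3 were dropped and to -0.35 with array weights, and ran from -0.28 to 0.42 with 1 library left out. The Srd5a1 to Akr1c14 log2 ratio ran from -0.0052 to 0.17 in such fits. The cause of these changes was not tested. Srd5a1, Akr1c14, Akr1c18, Hsd11b2 and Hsd17b11 had a positive difference and Hsd11b1 a negative one under every alternative run. Deviations of same-numbered libraries from their group means correlated at -0.14, 0.079 and -0.13 over the genes tested. Those of differently numbered libraries correlated at between -0.13 and 0.20. The labels give same-numbered libraries only a shared number, and these correlations cannot decide whether they were paired. The count of members whose groups do not overlap without control 3 and deficient 3 was added after seeing the data. The depth of single libraries is unknown, so no counting error is given for Srd5a2 or other genes near 0.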

Other observations

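Below the minimum of 1 FPKM, and chosen after its values were seen, Cyp11a1, the enzyme that starts steroid synthesis by cutting the cholesterol side chain, measured 0.629, 0.918 and 0.641 FPKM in control 1 to 3 and 0.130, 0.122 and 0.069 FPKM in deficient 1 to 3. Every control lay above every library labelled deficient. With no filter on low values, it differed by -0.64 on the log2 scale (SE 0.07, limma adjusted p = 0.022). The decidual hormone gene Prl8a2 averaged 190 ± 150 and 10.9 ± 13.7 FPKM (SD, n = 3 each) in the same libraries, and its part in the values of Cyp11a1 was not tested. The aromatase gene Cyp19a1 was listed at 0 in all 6 libraries, and so were Hsd3b2 and Hsd17b3.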
